A study of Homo sapiens with 31 samples.

Results

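The replication-dependent histone genes encode the histones that package newly copied DNA. A gene was counted here when a probe set carrying 1 gene symbol bore the current symbol of a linker histone H1-1 to H1-6 or of an H2AC, H2BC, H3C or H4C gene with a number, and the rule found 54 genes among the 17314 measured. They were 6 of the 6 H1 genes of that kind in RefSeq, 14 of 17 H2A genes, 15 of 18 H2B genes, 8 of 13 H3 genes and 11 of 15 H4 genes. Of the other 15, 4 share a probe set with another histone gene and are no members, and 11 were not analysed here. Of the members, 48 lie on chromosome 6, 5 on chromosome 1 and 1 on chromosome 12. The rule itself used no expression difference, but the members were chosen with earlier results of these data known. No filter on low levels was applied, and all 54 entered every test.

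Expression was measured with whole-transcript Affymetrix arrays in tumours grown as xenografts from PC3, a human prostate carcinoma line. The 3 clones A3, D3 and D4 had been passaged in vivo and re-isolated, and were set against PC3 wt, labelled as conditioned in vitro and not passaged. D3 and D4 are labelled resistant to cyclophosphamide (CPA), a DNA-alkylating drug, while A3 and wt are labelled sensitive. When tumours averaged 30 mm3, a group of each line received 120 mg/kg CPA intraperitoneally, and the control tumours were untreated. All 4 lines were grown in culture before implantation, the clones for some passages without antibiotics. There were therefore 8 groups: A3, D3, D4 and wt with CPA, and A3, D3, D4 and wt without it, called control. Each group held 4 arrays except A3 control with 3, because the submitters left out 1 of 32 planned arrays as an outlier. A3, D3 and D4 are 1 clone each, so a difference between a clone and wt cannot be told apart from what is peculiar to that clone. The series title speaks of metronomic therapy, but the labels give neither the schedule, nor the time from dose to collection, nor the host strain.

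Histone H1 binds the linker DNA between nucleosomes, and H2A, H2B, H3 and H4 form the core around which DNA is wound. The genes of this family lie in clusters, are transcribed mainly in S phase, and give mRNAs that end in a conserved stem loop bound by SLBP instead of a poly(A) tail. Their mRNAs are lost rapidly when DNA synthesis stops, which ties the histone supply to DNA replication, and a few of the genes can also give polyadenylated mRNA in cells that do not divide.

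Promoters of these genes share short motifs. The windows of H2BC14 and H4C2 are shown because both genes stood higher in all 3 clones than in wt and lower after CPA in all 3 clones, and those of H2BC21 and H4C8 because both stood lower in the clones. Each window runs 5′ to 3′ on the gene's strand from 250 bases before to 50 after the RefSeq start (GRCh38.p14). Capitals mark the CCAAT box and the TATA box (letters TATAAA), along with the octamer ATTTGCAT that OCT1 is known to bind at H2B genes, each on either strand. The windows lie at chr6:27814772-27815071 on the plus strand for H2BC14, and on the minus strand at chr6:26027234-26027533 for H4C2, chr1:149886633-149886932 for H2BC21 and chr6:26285485-26285784 for H4C8.
H2BC14: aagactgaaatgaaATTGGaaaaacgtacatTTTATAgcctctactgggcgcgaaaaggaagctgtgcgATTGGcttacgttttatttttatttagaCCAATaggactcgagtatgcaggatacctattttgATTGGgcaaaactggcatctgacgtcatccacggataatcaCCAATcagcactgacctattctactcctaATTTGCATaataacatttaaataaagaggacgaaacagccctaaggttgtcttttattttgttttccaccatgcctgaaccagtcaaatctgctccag
H4C2: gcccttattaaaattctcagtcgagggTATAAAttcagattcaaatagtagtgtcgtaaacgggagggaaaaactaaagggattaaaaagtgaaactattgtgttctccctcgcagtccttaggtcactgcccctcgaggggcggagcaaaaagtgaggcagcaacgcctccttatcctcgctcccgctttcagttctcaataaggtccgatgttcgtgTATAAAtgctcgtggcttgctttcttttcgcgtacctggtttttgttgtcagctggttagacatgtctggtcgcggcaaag
H2BC21: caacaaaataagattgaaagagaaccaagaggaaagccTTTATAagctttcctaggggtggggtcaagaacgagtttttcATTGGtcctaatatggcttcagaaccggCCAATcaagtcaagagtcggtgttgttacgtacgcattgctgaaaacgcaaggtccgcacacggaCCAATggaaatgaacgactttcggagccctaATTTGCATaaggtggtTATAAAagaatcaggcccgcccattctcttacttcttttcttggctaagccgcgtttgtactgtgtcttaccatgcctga
H4C8: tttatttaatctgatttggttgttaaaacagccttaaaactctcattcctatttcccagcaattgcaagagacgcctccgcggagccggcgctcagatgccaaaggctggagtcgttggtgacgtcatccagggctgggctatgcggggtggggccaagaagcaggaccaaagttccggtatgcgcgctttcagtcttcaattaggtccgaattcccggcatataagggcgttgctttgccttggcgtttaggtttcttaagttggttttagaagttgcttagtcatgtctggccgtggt
The window of H2BC14 held 5 CCAAT, 1 TATAAA and 1 octamer match, and that of H2BC21 held 3, 2 and 1. The window of H4C2 held 2 TATAAA matches, and that of H4C8 held none of the motifs, which says only that these letters are not in it.

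Of the 54 members, 49 had a window in the RefSeq promoter table. CCAAT was found in 43 of the 49, against 34.61% of all 35116 windows, and TATAAA in 34, against 11.53%. The octamer ATTTGCAT was found in 22, namely in 10 of 13 H2A and 12 of 15 H2B windows, against 1.774% of all windows. The motif AAACACA, known from H1 promoters, was found in all 6 H1 windows and in 1 H2A window, against 5.644%. Both strands were searched and different motifs were allowed to overlap. H2A and H2B genes arranged head to head share most of their windows, so their matches are not independent. The octamer stood in 9 of 23 windows of members higher in all 3 clones than in wt, 2 of 7 of members lower in all 3, and 5 of 8 of members lower with CPA in all 3 clones. These are descriptions of letters and were not tested.

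Levels are the deposited RMA values on a log2 scale, where a difference of 1 is a 2-fold change. Array medians lay between 6.59 and 6.73, and arrays of the same group correlated at 0.985 to 0.997 across genes. The median residual SD was 0.178 over the members and 0.148 over all genes. Of the epithelial and PC3 list, the keratins KRT8 and KRT18 had mean levels of 9.92 and 10.00 (percentiles 94.7 and 95.1 of all genes) and the mesenchymal gene VIM 11.23, whereas CDH1 stood at 6.27 and CLDN7 at 6.92 (percentiles 34.4 and 46.1). The prostate markers KLK2 and KLK3 stood at 5.85 and 5.93. The labels do not state that each array was a separate animal, so the tests speak of variation among these arrays, some of which could be technical. Coding sequences within a histone class are nearly identical, so a probe set named for 1 gene may also read its relatives, and values of neighbouring copies are uncertain to that extent. In whole tumour RNA, fewer cells with histone RNA and less histone RNA per cell cannot be told apart.

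Untreated tumours of the 3 clones carried more RNA from most replication-dependent histone genes than untreated wt tumours, and less from a small group. In A3, 29 of the 54 members rose and 7 fell relative to wt at an adjusted p under 0.05, where 10.1% of all genes rose and 8.36% fell. In D3, 29 rose and 7 fell, against 9.69% and 8.4% of all genes, and in D4, 31 rose and 7 fell, against 9.22% and 10.9%, so that 38 members were called in D4 where 20.1% of all genes were. The members that rose made up 53.7%, 53.7% and 57.41% of the 54 in A3, D3 and D4. Those that fell made up 12.96% in each clone, not far above the shares of all genes that fell. The median difference over the members was 0.35 in A3, 0.34 in D3 and 0.37 in D4, where the medians over all genes were 0.04, 0.01 and 0.05. The 3 comparisons share the wt control arrays and are therefore not independent of each other. In 26 members the call was higher in every clone, as in 4.52% of all genes, and in 7 it was lower in every clone, as in 5.12% of all genes.

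**Figure D1:**
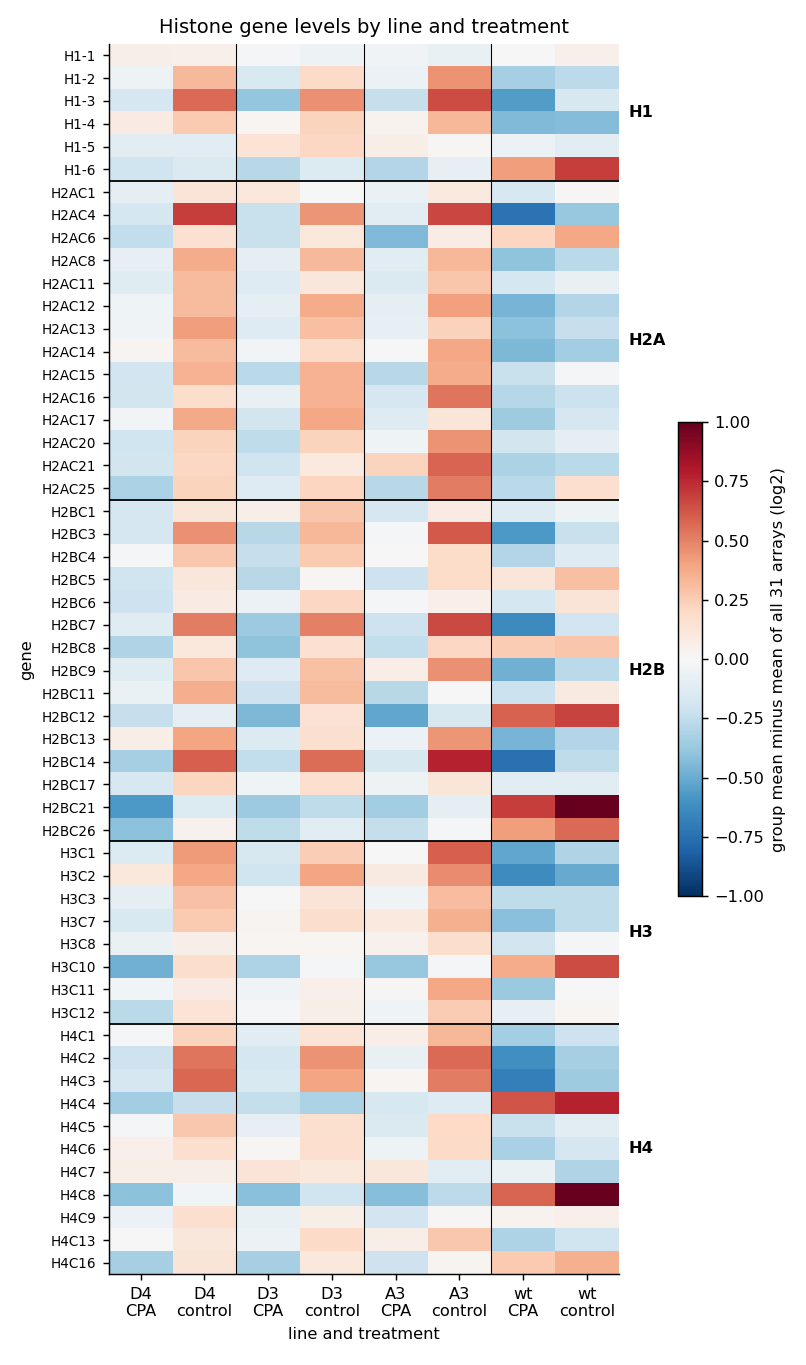
Mean level of each of the 54 histone genes (rows, by class) in the 8 groups of line and treatment (columns), as the difference from the gene's mean over all 31 arrays in log2 units, red for higher and blue for lower, with the colour scale ending at 1 and -1. Most rows are red in control tumours of the clones, while H1-6, H2BC12, H2BC21, H2BC26, H3C10, H4C4 and H4C8 are red in both wt columns. Some rows not called in control tumours also have both wt means above the gene's mean, among them H2AC6, H2BC5, H2BC8 and H4C16.

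The heat map of group means shows members higher and members lower in the clones within H1, H2B, H3 and H4. No H2A gene was called lower than wt in untreated tumours. Summed over an array as the median of the members' deviations from their overall means, the level lay between 0.18 and 0.41 in A3 control tumours, 0.11 and 0.24 in D3 and 0.15 and 0.35 in D4, against -0.20 to -0.01 in wt control tumours. The arrays of each clone all lay above those of wt. Counted gene by gene, the arrays of a clone all lay above wt for 26 members in A3, 27 in D3 and 27 in D4, where this held for 13.9%, 11.9% and 8.81% of all genes. They all lay below wt for 7, 6 and 7 members, where this held for 10.3%, 10.2% and 9.63% of all genes.

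Among the 6 linker histones, 3 rose and 1 fell in each clone. H1-2, H1-3 and H1-4, somatic subtypes that are widely expressed, rose, while H1-6, the testis linker histone, fell. H1-3 stood at 10.06, 9.80 and 10.16 in A3 control tumours, 9.76, 9.80, 9.72 and 9.94 in D3, 9.80, 10.05, 10.01 and 9.80 in D4, and 9.02, 9.44, 8.97 and 9.32 in wt control tumours. The 3 clones did not overlap wt. H1-3 differed from wt by 0.82 in A3 (SE 0.13, adjusted p 2.89e-05), 0.62 in D3 (SE 0.12, adjusted p 0.000397) and 0.73 in D4 (SE 0.12, adjusted p 4.44e-05). H1-4 stood at 11.86, 11.77 and 12.02 in A3 control tumours, 11.65, 11.86, 11.72 and 11.87 in D3, 11.77, 11.80, 11.93 and 11.76 in D4, and 11.11, 11.18, 10.86 and 11.32 in wt control tumours. Again every clone array was above every wt array. H1-4 differed from wt by 0.77 in A3 (SE 0.102, adjusted p 2.21e-06), 0.66 in D3 (SE 0.094, adjusted p 7.89e-06) and 0.70 in D4 (SE 0.094, adjusted p 2.66e-06). H1-6 differed from wt by -0.77 in A3, -0.83 in D3 and -0.83 in D4 (adjusted p 0.000266, 4.55e-05 and 3.46e-05). Its level was low, with control means of 5.75 in wt and 4.98, 4.92 and 4.92 in A3, D3 and D4, and it was among the dimmest 30% of genes. H1-1 and H1-5, the other somatic subtypes here, were called in none of the 3 comparisons and differed from wt by -0.13 to 0.33.

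All H2A calls against wt in untreated tumours were in the upward direction. Of 14 members, 10 rose in A3, 9 in D3 and 11 in D4, and none fell, although H2AC6 stood -0.31, -0.28 and -0.23 from wt without passing the test (adjusted p 0.0646, 0.0773 and 0.133; unadjusted p under 0.05 in each). H2AC4 and H2AC8, which encode the same core H2A protein from different places in the large cluster, carried values in every array as follows. H2AC4 stood at 9.80, 9.59 and 9.94 in A3 control tumours, 9.33, 9.70, 9.54 and 9.62 in D3, 9.70, 9.88, 9.94 and 9.68 in D4, and 8.49, 8.87, 8.38 and 9.17 in wt control tumours. The clone arrays all exceeded the wt arrays, of which replicate 4 was highest. H2AC4 differed from wt by 1.05 in A3 (SE 0.149, adjusted p 5.99e-06), 0.82 in D3 (SE 0.138, adjusted p 6.84e-05) and 1.07 in D4 (SE 0.138, adjusted p 1.26e-06), or 2.07-fold, 1.77-fold and 2.10-fold higher. H2AC8 stood at 6.82, 6.74 and 7.26 in A3 control tumours, 6.99, 6.92, 6.98 and 6.85 in D3, 6.96, 6.96, 7.09 and 6.91 in D4, and 6.27, 6.39, 6.25 and 6.45 in wt control tumours. The groups did not overlap. H2AC8 differed from wt by 0.60 in A3 (SE 0.107, adjusted p 0.000137), 0.59 in D3 (SE 0.099, adjusted p 6.24e-05) and 0.64 in D4 (SE 0.099, adjusted p 2.08e-05). H2AC1, a testis histone, differed by 0.09, -0.01 and 0.12 in A3, D3 and D4 and was not called.

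The H2B class held calls in both directions. Of its 15 members 5 rose in A3, 6 in D3 and 6 in D4, and 3 fell in each clone, namely H2BC12, H2BC21 and H2BC26. H2BC14 stood at 11.70, 11.67 and 11.85 in A3 control tumours, 11.65, 11.54, 11.44 and 11.46 in D3, 11.67, 11.51, 11.68 and 11.40 in D4, and 10.61, 10.81, 10.50 and 10.91 in wt control tumours. Its clone arrays stood apart from wt. H2BC14 differed from wt by 1.03 in A3 (SE 0.118, adjusted p 2.5e-07), 0.81 in D3 (SE 0.109, adjusted p 2.88e-06) and 0.86 in D4 (SE 0.109, adjusted p 1.05e-06). H2BC21 stood at 8.13, 8.43 and 8.48 in A3 control tumours, 8.24, 8.20, 8.30 and 8.02 in D3, 8.15, 8.38, 8.59 and 8.09 in D4, and 9.71, 9.60, 9.67 and 9.02 in wt control tumours. This gene ran the opposite way, and wt replicate 4 was the wt array nearest to the clones. H2BC21 differed from wt by -1.15 in A3 (SE 0.155, adjusted p 2.64e-06), -1.31 in D3 (SE 0.144, adjusted p 1.42e-07) and -1.20 in D4 (SE 0.144, adjusted p 4.03e-07), or 2.22-fold, 2.48-fold and 2.29-fold lower. H2BC12 differed from wt by -0.84, -0.53 and -0.77 in A3, D3 and D4 (adjusted p 0.00179, 0.0304 and 0.00187), and its D3 and wt arrays overlapped. H2BC26 differed by -0.58, -0.68 and -0.53 (adjusted p 0.0059, 0.000621 and 0.00621).

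**Figure D2:**
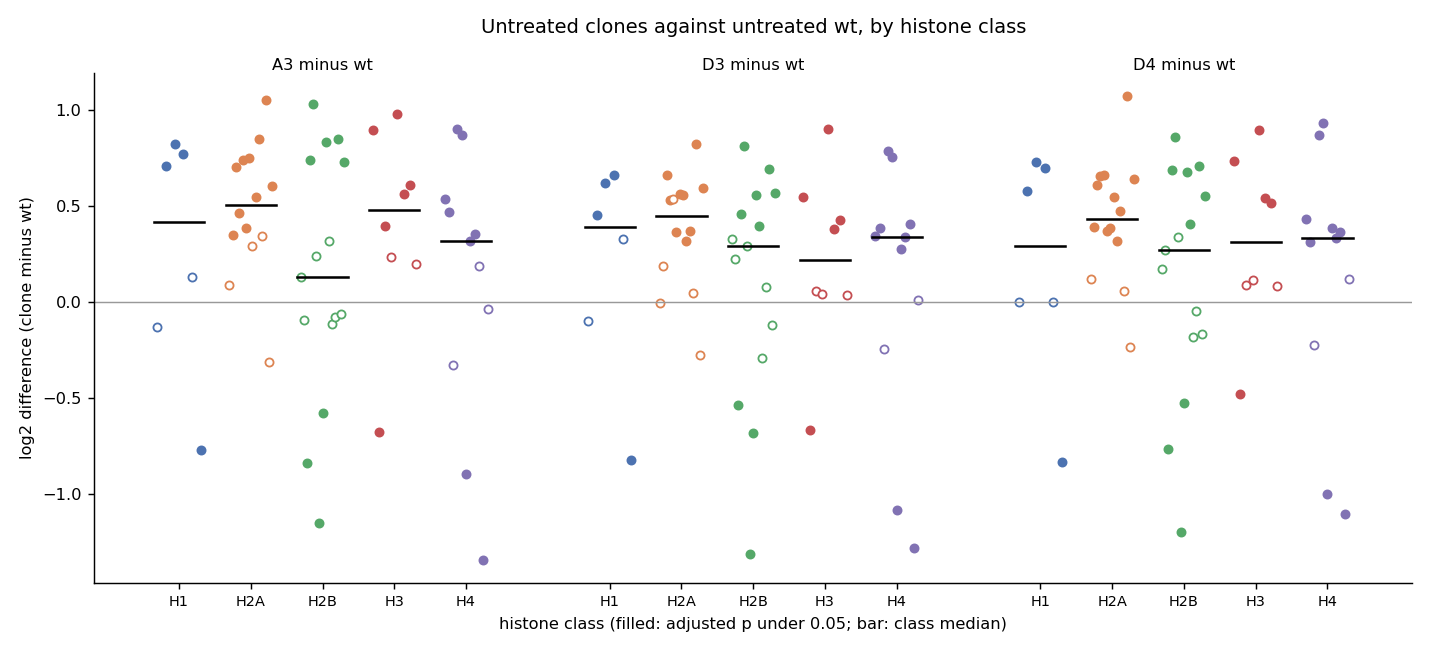
Log2 difference of each histone gene between untreated tumours of a clone and untreated wt tumours (vertical axis), by histone class (horizontal axis) for A3, D3 and D4, with filled points for genes called at an adjusted p under 0.05 and bars for class medians. The H2A points called in any clone all lie above 0, while H2B and H4 hold called points on both sides.

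H3 and H4, which form the tetramer at the centre of the nucleosome, followed the same split. Of the 8 H3 members, 5 rose in A3, 4 in D3 and 4 in D4, and H3C10 fell in each. The rises in A3 included H3C11, while a probe set shared by H3C11 and H3C6 differed there by -0.50. H3C1 and H3C10 encode the same protein, H3.1, and by their own probe sets moved in opposite directions. A probe set shared by H3C10 and H2AC13 differed from wt by 0.11, 0.04 and 0.13 in A3, D3 and D4 and was not called. H3C1 stood at 8.03, 8.004 and 8.21 in A3 control tumours, 7.65, 7.80, 7.62 and 7.86 in D3, 7.97, 8.06, 7.94 and 7.70 in D4, and 6.96, 7.28, 7.15 and 7.35 in wt control tumours. Every clone array lay above wt. H3C1 differed from wt by 0.89 in A3 (SE 0.122, adjusted p 3.03e-06), 0.55 in D3 (SE 0.112, adjusted p 0.000748) and 0.73 in D4 (SE 0.112, adjusted p 1.76e-05). H3C10 stood at 7.46, 7.58 and 7.78 in A3 control tumours, 7.56, 7.65, 7.77 and 7.51 in D3, 7.97, 7.86, 7.86 and 7.53 in D4, and 8.30, 8.24, 8.52 and 8.09 in wt control tumours. Every clone array lay below wt. H3C10 differed from wt by -0.68 in A3 (SE 0.12, adjusted p 0.000121), -0.67 in D3 (SE 0.111, adjusted p 5.77e-05) and -0.48 in D4 (SE 0.111, adjusted p 0.00203). H3C2, another H3.1 gene, differed by 0.98 in A3, 0.90 in D3 and 0.89 in D4 (adjusted p 0.000211, 0.000225 and 0.000213). Of the 11 H4 members, 6 rose in A3, 7 in D3 and 7 in D4, and H4C4 and H4C8 fell in each. H4C2 stood at 9.59, 9.51 and 9.87 in A3 control tumours, 9.47, 9.53, 9.45 and 9.70 in D3, 9.38, 9.77, 9.83 and 9.49 in D4, and 8.79, 8.88, 8.43 and 8.91 in wt control tumours. No clone array overlapped wt. H4C2 differed from wt by 0.90 in A3 (SE 0.128, adjusted p 5.83e-06), 0.78 in D3 (SE 0.118, adjusted p 1.58e-05) and 0.87 in D4 (SE 0.118, adjusted p 3e-06). H4C8 stood at 9.19, 8.90 and 9.31 in A3 control tumours, 9.18, 9.09, 9.31 and 9.19 in D3, 9.45, 9.39, 9.37 and 9.27 in D4, and 10.63, 10.72, 10.40 and 10.15 in wt control tumours. Here the clones lay wholly below wt, by 2.53-fold in A3, 2.43-fold in D3 and 2.15-fold in D4. H4C8 differed from wt by -1.34 in A3 (SE 0.141, adjusted p 7.91e-08), -1.28 in D3 (SE 0.13, adjusted p 4.34e-08) and -1.11 in D4 (SE 0.13, adjusted p 3.11e-07). H4C3 rose by 0.87, 0.75 and 0.93 in A3, D3 and D4 (adjusted p 7.81e-05, 0.000191 and 9.22e-06). H4C4 differed by -0.90, -1.09 and -1.0 (adjusted p 0.000497, 1.79e-05 and 4.44e-05).

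**Figure D3:**
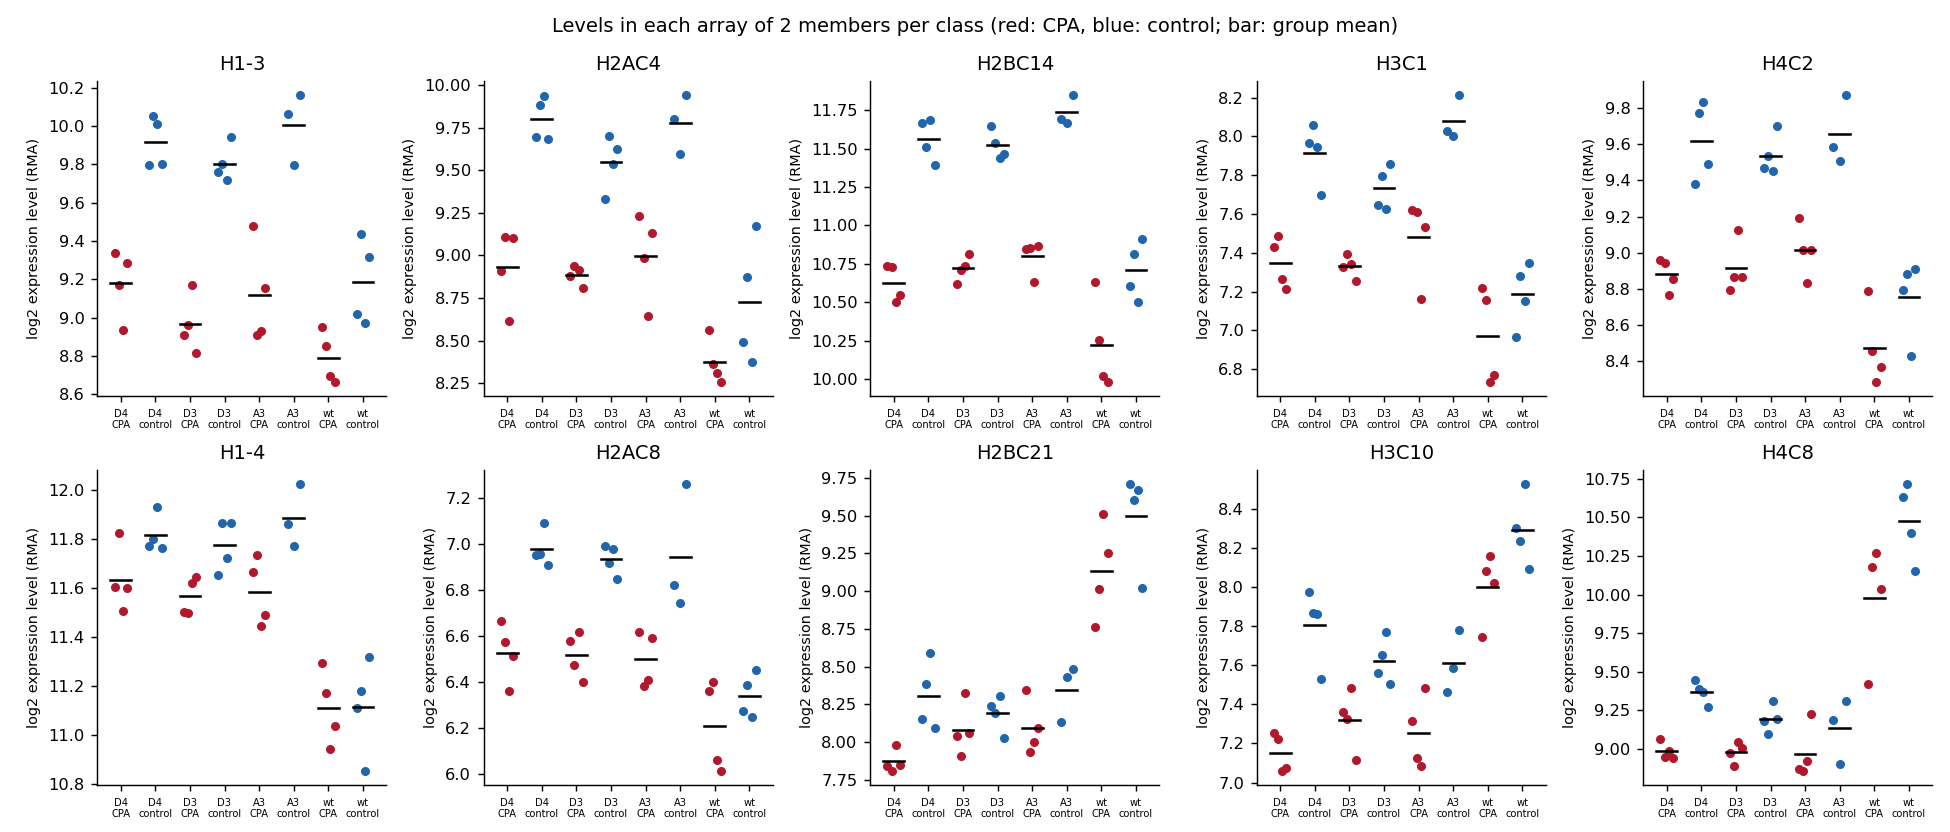
Log2 expression level (RMA, vertical axis) in each of the 31 arrays for 2 members per class, by line and treatment (horizontal axis), with red points for CPA, blue points for control and bars for group means. The 2 were those with the smallest p of the F test over these 8 groups. In H1-3, H1-4, H2AC4, H2AC8, H2BC14, H3C1 and H4C2 the control arrays of the clones lie above those of wt, and in H2BC21, H3C10 and H4C8 below them.

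Neighbouring genes did not always move together. The RefSeq promoter table held 9 pairs of an H2A and an H2B member arranged head to head, with starts 215 to 248 bases apart and windows that share 253 to 286 bases. In the pair H2AC20 and H2BC21 the H2A gene rose by 0.55, 0.32 and 0.32 in A3, D3 and D4 (adjusted p 0.000453, 0.0232 and 0.0236), while H2BC21 fell in each. In the pair H2AC8 and H2BC8 the H2A gene rose in each clone, and H2BC8 differed by -0.07, -0.12 and -0.17 without passing the test. In the pairs H2AC13 with H2BC13 and H2AC14 with H2BC14 all differences were above 0, and both genes of each pair were called in A3 and D4. H2AC14 was among the dimmest 30% of genes, and its call was made again in 9 of 16 alternatives in A3 and 9 of 17 in D4. The plot of the 9 pairs gives the rest. By position, the largest block of neighbours on chromosome 6 held 30 members, of which 17, 19 and 19 rose in A3, D3 and D4 and 3 fell in each. A further block there held 13 members, of which 8, 7 and 8 rose and 1 fell. The 3 members H2BC21, H2AC20 and H2AC21 on chromosome 1 held 2 that rose and 1 that fell in each clone, and H4C16 alone on chromosome 12 was called in none.

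**Figure D4:**
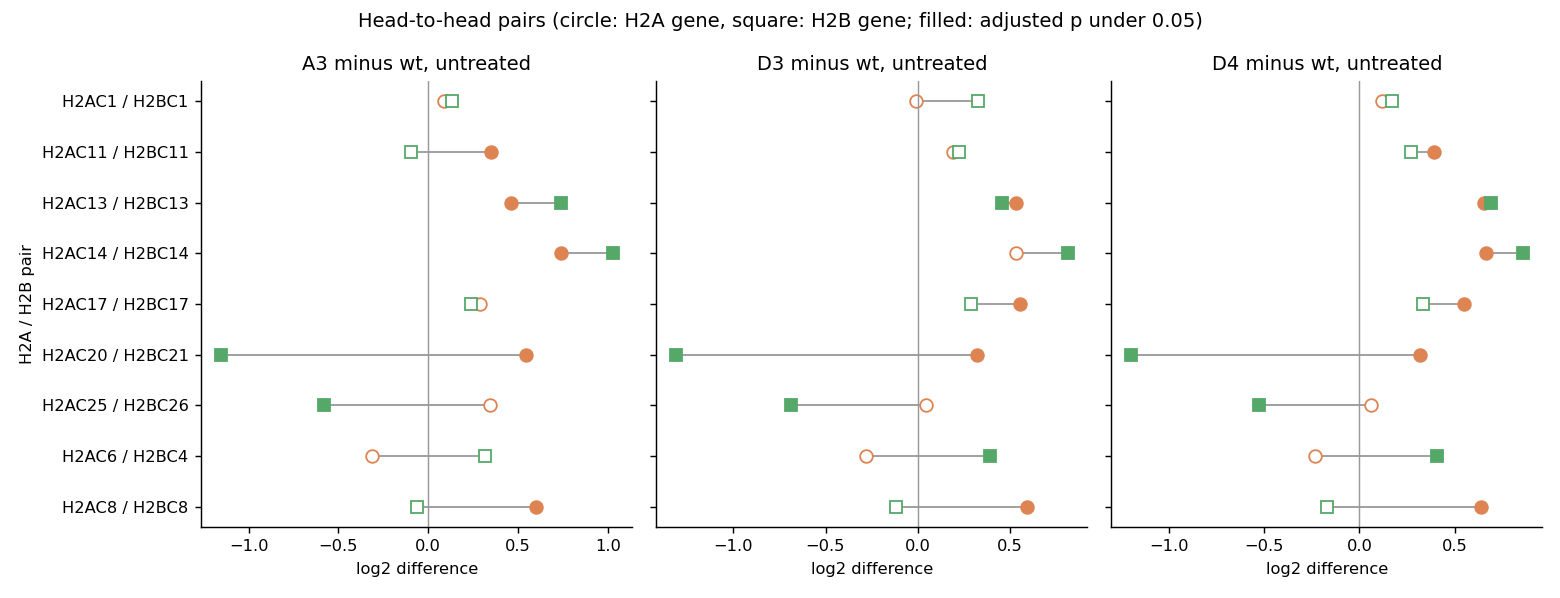
Log2 difference between untreated tumours of a clone and untreated wt tumours (horizontal axis) for the H2A gene (circle) and the H2B gene (square) of 9 head-to-head pairs, filled where the adjusted p was under 0.05. In all 3 clones H2AC20 lies to the right of 0 and H2BC21 to the left, both filled.

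Among genes that can give polyadenylated histone mRNA (H1-2, H2AC6, H2BC4, H2BC5, H2BC12 and H2BC21), H1-2 rose and H2BC12 and H2BC21 fell in each clone. H2BC4 rose in D3 and D4 and differed by 0.32 in A3 (adjusted p 0.136), and H2AC6 and H2BC5 were not called. Of 25 genes of histone mRNA processing and transcription, 6 rose and 0 fell in A3, 6 rose and 1 fell in D3, and 7 rose and 3 fell in D4. Among them SLBP, the stem-loop binding protein, rose by 0.35 in D3 and 0.34 in D4 (adjusted p 0.00066 and 0.000597). LSM10, a subunit of the U7 particle that cuts histone pre-mRNA, rose by 0.50 in D3 and 0.40 in D4, and HINFP, a factor of H4 promoters, fell by 0.32 in D4 (adjusted p 0.00255). Of 20 histone chaperones, 8, 7 and 7 rose in A3, D3 and D4 and none fell. ASF1B, which hands H3 and H4 to the replication machinery, rose by 0.90, 0.53 and 0.54, and the CAF-1 subunit CHAF1B by 0.56, 0.46 and 0.55. Of 9 replication-independent histones, 4, 3 and 4 rose, H2AZ1 by 0.69, 0.63 and 0.67.

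Most DNA replication genes rose in the clones as well. Of 46 measured, 40 rose in A3, 40 in D3 and 39 in D4, and none fell, with median differences of 0.57, 0.46 and 0.47. Of 26 mitosis genes, 19, 17 and 18 rose and none fell. As a median over the list, the DNA replication genes lay between 0.04 and 0.20 in A3 control arrays, -0.08 and 0.07 in D3 and -0.12 and 0.08 in D4, against -0.61 to -0.29 in wt. The part of either list in the histone differences was not tested. Of 34 markers of other cells, 6 were called in A3, 4 in D3 and 6 in D4, where 18.5%, 18.1% and 20.1% of all genes were. The probe sets are for human genes, so these markers may read cells of the xenograft host poorly or not at all. Of 10 endothelial genes 0, 0 and 1 rose and 2, 1 and 1 fell, of 10 fibroblast genes 0, 2 and 1 rose and 2, 1 and 1 fell, of 10 myeloid genes 1, 0 and 1 rose and 0, 0 and 1 fell, and of 4 erythroid genes 1 fell in A3. Their part was not tested either. Of the calls against wt, 23 of 36 in A3, 20 of 36 in D3 and 24 of 38 in D4 were made again in every alternative run. A further 5, 6 and 4 were made again in every alternative except the one without the dimmest 30% of genes, which left them out. Leaving out any 1 array left between 29 and 38 members called. Some alternative took the call from 8 members in A3, 10 in D3 and 10 in D4, and the lists below name only some of these. Among those not named, H3C11 and H4C6 in A3 were called in 9 of 16 alternatives each, and H4C5 in D3 in 10 of 17. H4C5 and H4C6 belong to the members called higher in every clone. In A3, H2AC13, H2AC14 and H2BC26 each lost the call when 1 or more of these arrays was left out singly, namely A3 control replicates 1, 2 and 4 and wt control replicates 1 and 3 (adjusted p 0.0518 to 0.112). In D3, H2AC20, H2BC12 and H2BC4 each lost the call when 1 or more of these arrays was left out singly, namely D3 control replicates 1, 2, 3 and 5 and wt control replicates 1, 2 and 3 (adjusted p 0.054 to 0.142). In D4, H2AC14, H2AC20 and H2BC4 each lost the call when 1 or more of these arrays was left out singly, namely D4 control replicates 2, 4 and 5 and wt control replicates 1 and 3 (adjusted p 0.052 to 0.105).

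The same 7 members were lower in CPA-treated clones than in CPA-treated wt tumours, which are different arrays. With CPA, 18 members stood higher and 10 lower in A3 than in wt, where 6.74% of all genes were higher and 9.6% lower. In D3 there were 11 higher and 10 lower, against 6.28% and 10.1%, and in D4 19 higher and 10 lower, against 7.54% and 7.59%. The 10 lower in every clone, as in 3.66% of all genes, were H1-6, H2BC12, H2BC21, H2BC26, H3C10, H4C4 and H4C8, joined by H2AC6, H2BC8 and H4C16. Of the members that rose in untreated tumours, the call was made again with CPA for 18 of 29 in A3, 10 of 29 in D3 and 18 of 31 in D4, while all 7 that fell were called again in each clone. Taking calls made in all 3 clones, 8 of 26 members that rose and 7 of 7 that fell were called again, where 251 of 782 and 537 of 887 among all genes were. H1-4, H2AC4, H2AC8, H2BC13, H2BC14, H3C1, H4C2 and H4C3 were higher in all 3 clones under both conditions, as were 1.45% of all genes. H2BC21 differed by -1.04, -1.05 and -1.27 with CPA (SE 0.144 in each), and H4C8 by -1.01, -0.998 and -0.99 (SE 0.13 in each). H2BC14 differed by 0.58, 0.50 and 0.41 (adjusted p 0.000296, 0.00183 and 0.00949). Of the calls with CPA, 17 of 28 in A3, 11 of 21 in D3 and 11 of 29 in D4 were made again in every alternative. A further 2, 3 and 4 were made again in all but the alternative that left them out as dim. Some alternative took the call from 9 members in A3, 7 in D3 and 14 in D4, and the lists below name only some of these. Among those not named, H3C11 in D3 and H4C13 in D4 were called in 7 of 17 alternatives each. The D4 count of 29 fell to 16 without wt CPA replicate 3, 17 without wt CPA replicate 5, and 19 without D4 CPA replicate 1 or 2. In CPA-treated A3, H2AC8, H2BC13, H2BC8 and H4C16 each lost the call when 1 or more of these arrays was left out singly, namely A3 CPA replicates 1, 2, 3 and 4 and wt CPA replicates 2, 3 and 5 (adjusted p 0.051 to 0.151). In CPA-treated D3, H2AC8, H2BC13, H3C1 and H4C2 each lost the call when 1 or more of these arrays was left out singly, namely D3 CPA replicates 2, 3, 4 and 5 and wt CPA replicates 1, 2, 3 and 5 (adjusted p 0.0531 to 0.187). In CPA-treated D4, H2AC8, H2BC14, H3C1, H4C2 and H4C3 each lost the call when 1 or more of these arrays was left out singly, namely D4 CPA replicates 1, 2 and 5 and wt CPA replicates 3 and 5 (adjusted p 0.0525 to 0.117).

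Few of these genes were called between the resistant clones and the sensitive clone A3, but in control tumours this was near the share of all genes. There 1.85% of the members were called in each direction. In control tumours 1 member was higher and 1 lower in D3 and D4 together than in A3, where 1.85% of all genes were higher and 2.04% lower, or 3.89% in either direction. H2AC21 stood at 10.93, 10.99, 10.99 and 10.96 in D3 and 11.15, 10.999, 11.27 and 10.88 in D4, against 11.29, 11.42 and 11.64 in A3. The resistant clones lay below A3 without overlap, the 1 member to do so where 2.89% of all genes did, and 0 members lay wholly above A3, where 2.05% of all genes did. H2AC21 differed by -0.43 (SE 0.107, adjusted p 0.0172). H2BC11 stood at 6.57, 6.98, 6.94 and 6.87 in D3 and 6.80, 7.06, 7.08 and 6.61 in D4, against 6.65, 6.47 and 6.45 in A3. These groups overlapped, with a difference of 0.34 (SE 0.096, adjusted p 0.0397). With CPA, 0 members were higher and 1 lower by limma, where 4.23% of all genes were higher and 3.87% lower, and 3 members had an unadjusted p under 0.05. The 1 was again H2AC21, at 10.69, 10.61, 10.91 and 10.48 in D3 and 10.68, 10.78, 10.77 and 10.50 in D4, against 11.25, 10.86, 11.20 and 11.06 in A3, a difference of -0.41 (SE 0.097, adjusted p 0.00571). Those groups overlapped. In control tumours H2AC21 lost its call without A3 replicate 2 (adjusted p 0.0531) or 4 (0.221), and H2BC11 without A3 replicate 1, 2 or 4, D3 replicate 2, 3 or 5, or D4 replicate 2 or 4 (adjusted p 0.0517 to 0.236). The count of 2 was 0 without A3 replicate 2 or 4, 2 without D3 replicate 1 or D4 replicate 1 or 5, and 1 without each of the others. A p that misses the threshold does not show that the other members were equal: their differences in control tumours lay between -0.32 and 0.26.

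Histone RNA fell with CPA in each of the 3 clones, and no histone gene was called higher. The control arrays of a clone entered both this comparison and the one with wt. In A3 13 members fell, in D3 9 and in D4 15, where 0.248%, 0.231% and 0.364% of all genes fell and 0.104%, 0% and 0.664% rose. None rose by limma, and none had an unadjusted p under 0.05 in the upward direction, whereas 34, 34 and 39 members had one downward. The members made up 13 of the 43 genes lowered in A3, 9 of 40 in D3 and 15 of 63 in D4. In wt, 0 members were called by limma, 15 had an unadjusted p under 0.05, of which 14 were lower, and 7 genes in all fell, which is 0.0404% (0.0462% in either direction). The median difference over the members was -0.35 in A3, -0.30 in D3, -0.39 in D4 and -0.16 in wt, where the medians over all genes lay between -0.03 and 0.01. Values below 0 were seen in 51 of 54 members in A3, 50 in D3, 52 in D4 and 51 in wt.

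The CPA comparisons of different lines share no arrays. H1-3, H2AC4, H2AC15, H2AC20, H2BC3, H2BC7, H2BC14 and H4C2 fell in all 3 clones, which makes 8 of the 19 genes (0.11% of all) that did so. The other 11 were the mitosis genes AURKA, BUB1, CCNB1, CDC20, KIF20A and PLK1, and CCNF, DHRS2, FAM83D, GTSE1 and PTTG1, and no gene of the DNA replication list was among them. Of the members that fell in A3, 8 of 13 also fell in D3 and 9 of 13 in D4, and all 9 that fell in D3 fell in D4, where they made up 9 of 15. No member had all its CPA arrays above control in any line, where this held for 2.3% of all genes in A3, 3.96% in D3, 4.14% in D4 and 1.34% in wt. The arrays with CPA all lay below the control arrays for 24 members in A3, 31 in D3, 32 in D4 and 4 in wt, where this held for 2.74%, 5.64%, 5.83% and 0.809% of all genes. As medians over the members, CPA arrays lay between -0.25 and 0.03 in A3, -0.20 and -0.06 in D3, -0.21 and -0.09 in D4 and -0.35 and -0.16 in wt, against 0.18 to 0.41, 0.11 to 0.24, 0.15 to 0.35 and -0.20 to -0.01 in the control arrays. The treated and control arrays overlapped in wt and in no clone.

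**Figure D5:**
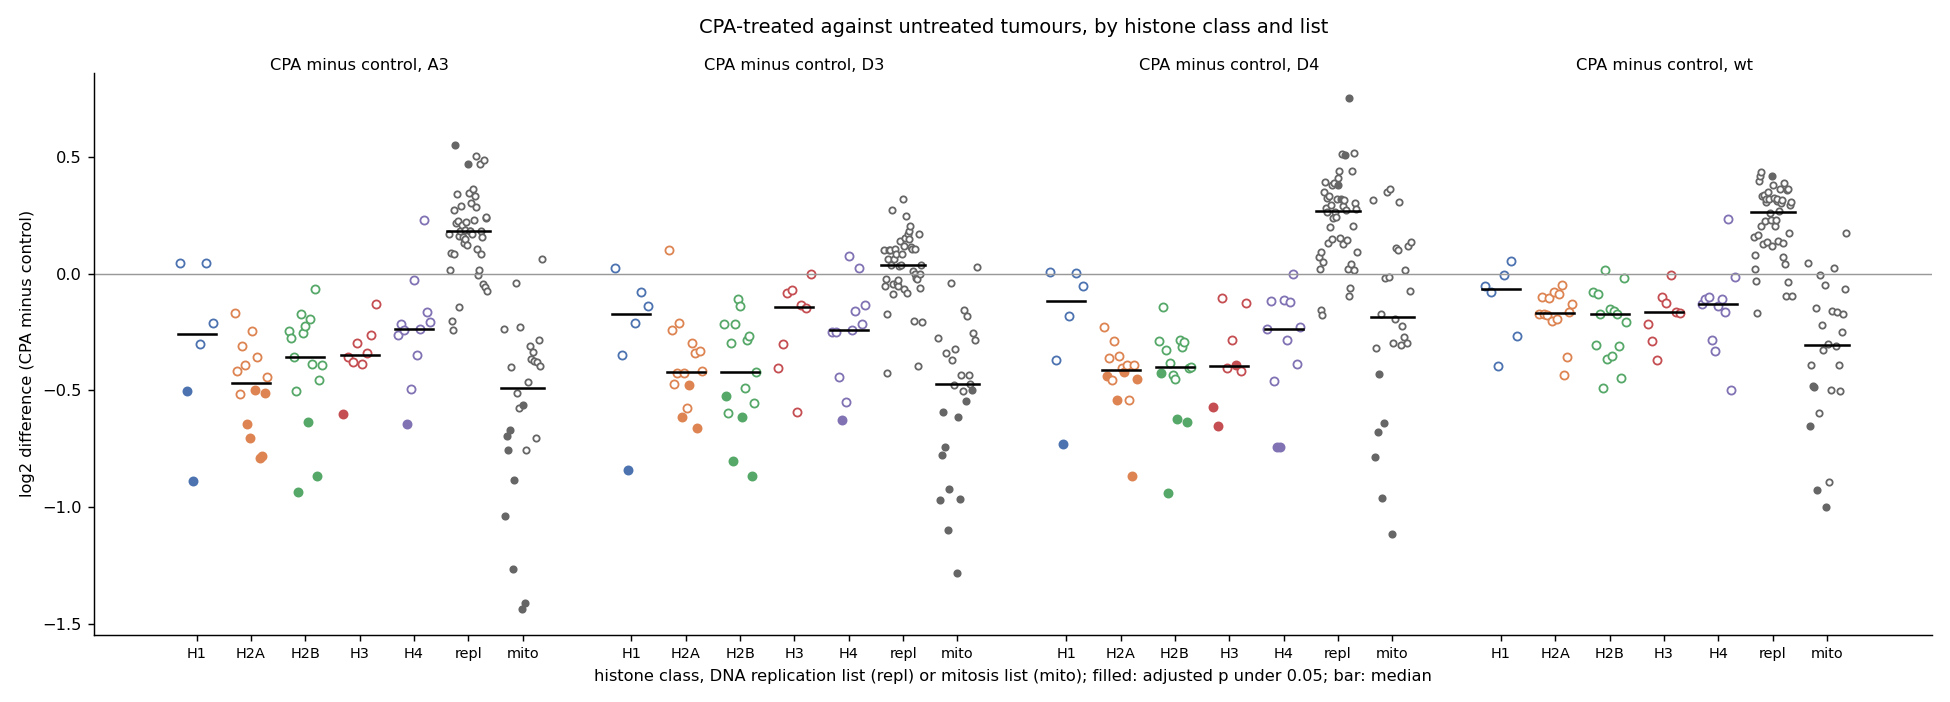
Log2 difference between CPA-treated and untreated tumours of the same line (vertical axis) for the 5 histone classes, the DNA replication list (repl) and the mitosis list (mito), in A3, D3, D4 and wt, with filled points for genes called at an adjusted p under 0.05 and bars for medians. All called histone points lie below 0, all called DNA replication points above 0 and all called mitosis points below 0.

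Of the linker histones, H1-3 fell in each clone and H1-2 fell in A3. H1-3 stood at 9.48, 8.91, 8.93 and 9.15 in CPA-treated A3 tumours, 8.91, 8.96, 9.17 and 8.82 in D3, 9.34, 9.17, 8.94 and 9.29 in D4 and 8.95, 8.85, 8.69 and 8.67 in wt, against 9.80 to 10.16, 9.72 to 9.94, 9.80 to 10.05 and 8.97 to 9.44 in the control tumours of the same lines. Treated arrays lay below the control arrays in each line, wt included. With CPA H1-3 differed from control by -0.89 in A3 (SE 0.13, adjusted p 0.000338), -0.84 in D3 (SE 0.12, adjusted p 0.000166), -0.73 in D4 (SE 0.12, adjusted p 0.00162) and -0.40 in wt (SE 0.12, adjusted p 0.585). H1-4 stood at 11.67, 11.73, 11.44 and 11.49 in CPA-treated A3 tumours, 11.50, 11.50, 11.62 and 11.64 in D3, 11.60, 11.82, 11.51 and 11.60 in D4 and 11.30, 11.17, 10.94 and 11.04 in wt, against 11.77 to 12.02, 11.65 to 11.87, 11.76 to 11.93 and 10.86 to 11.32 in the control tumours of the same lines. The treated arrays lay below control in A3 and D3 and overlapped it in D4 and wt. With CPA H1-4 differed from control by -0.30 in A3 (SE 0.102, adjusted p 0.411), -0.21 in D3 (SE 0.094, adjusted p 0.364), -0.18 in D4 (SE 0.094, adjusted p 0.254) and -0.004 in wt (SE 0.094, adjusted p 1), none of them past the threshold. H1-6, the testis gene, differed by -0.21, -0.14, -0.05 and -0.27 in A3, D3, D4 and wt and was not called.

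Of the 14 H2A members, 6 fell in A3, 3 in D3 and 5 in D4. H2AC4 stood at 9.23, 8.99, 8.64 and 9.13 in CPA-treated A3 tumours, 8.88, 8.94, 8.91 and 8.81 in D3, 8.91, 9.11, 8.62 and 9.10 in D4 and 8.57, 8.36, 8.31 and 8.26 in wt, against 9.59 to 9.94, 9.33 to 9.70, 9.68 to 9.94 and 8.38 to 9.17 in the control tumours of the same lines. The groups were apart in each clone and overlapped in wt. With CPA H2AC4 differed from control by -0.78 in A3 (SE 0.149, adjusted p 0.00789), -0.66 in D3 (SE 0.138, adjusted p 0.0232), -0.87 in D4 (SE 0.138, adjusted p 0.0013) and -0.35 in wt (SE 0.138, adjusted p 1). H2AC8 stood at 6.62, 6.39, 6.41 and 6.59 in CPA-treated A3 tumours, 6.58, 6.47, 6.62 and 6.40 in D3, 6.67, 6.57, 6.36 and 6.51 in D4 and 6.36, 6.40, 6.06 and 6.02 in wt, against 6.74 to 7.26, 6.85 to 6.99, 6.91 to 7.09 and 6.25 to 6.45 in the control tumours of the same lines. Again only wt overlapped. With CPA H2AC8 differed from control by -0.44 in A3 (SE 0.107, adjusted p 0.0683), -0.42 in D3 (SE 0.099, adjusted p 0.0742), -0.45 in D4 (SE 0.099, adjusted p 0.0233) and -0.13 in wt (SE 0.099, adjusted p 1), so the call was made in D4 alone. H2AC25, from the small block on chromosome 1, fell in A3 by 0.79 (adjusted p 0.0105) and differed by -0.34, -0.54 and -0.43 in D3, D4 and wt. H2AC20 fell by 0.50, 0.47 and 0.42 in A3, D3 and D4 (adjusted p 0.026, 0.0239 and 0.0332). Its head-to-head partner H2BC21 differed by -0.25, -0.11 and -0.43 and was not called, although its treated arrays all lay below control in D4.

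Of the 15 H2B members, 3 fell in A3, 4 in D3 and 4 in D4. H2BC14 stood at 10.85, 10.85, 10.63 and 10.87 in CPA-treated A3 tumours, 10.62, 10.71, 10.74 and 10.82 in D3, 10.73, 10.73, 10.50 and 10.54 in D4 and 10.63, 10.25, 10.02 and 9.98 in wt, against 11.67 to 11.85, 11.44 to 11.65, 11.40 to 11.68 and 10.50 to 10.91 in the control tumours of the same lines. The treated arrays stood well below control in each clone and overlapped it in wt. With CPA H2BC14 differed from control by -0.94 in A3 (SE 0.118, adjusted p 2.66e-05), -0.80 in D3 (SE 0.109, adjusted p 7.14e-05), -0.94 in D4 (SE 0.109, adjusted p 6.42e-06) and -0.49 in wt (SE 0.109, adjusted p 0.133), or 1.91-fold, 1.74-fold, 1.91-fold and 1.40-fold lower. H2BC21 stood at 8.35, 7.93, 8.001 and 8.09 in CPA-treated A3 tumours, 8.04, 7.91, 8.32 and 8.06 in D3, 7.84, 7.81, 7.98 and 7.85 in D4 and 8.76, 9.02, 9.51 and 9.26 in wt, against 8.13 to 8.48, 8.02 to 8.30, 8.09 to 8.59 and 9.02 to 9.71 in the control tumours of the same lines. These groups overlapped in A3, D3 and wt. With CPA H2BC21 differed from control by -0.25 in A3 (SE 0.155, adjusted p 0.829), -0.11 in D3 (SE 0.144, adjusted p 0.753), -0.43 in D4 (SE 0.144, adjusted p 0.108) and -0.36 in wt (SE 0.144, adjusted p 1). H2BC7 fell by 0.87, 0.86 and 0.63 in A3, D3 and D4 (adjusted p 0.00463, 0.00177 and 0.0275) and differed by -0.45 in wt (adjusted p 0.777).

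Of the 8 H3 members, 1 fell in A3, 0 in D3 by limma (3 with an unadjusted p under 0.05, all lower) and 3 in D4. H3C1 stood at 7.62, 7.61, 7.16 and 7.54 in CPA-treated A3 tumours, 7.33, 7.40, 7.34 and 7.25 in D3, 7.43, 7.49, 7.26 and 7.21 in D4 and 7.22, 7.16, 6.73 and 6.77 in wt, against 8.004 to 8.21, 7.62 to 7.86, 7.70 to 8.06 and 6.96 to 7.35 in the control tumours of the same lines. The arrays were apart in each clone and overlapped in wt. With CPA H3C1 differed from control by -0.60 in A3 (SE 0.122, adjusted p 0.0153), -0.40 in D3 (SE 0.112, adjusted p 0.181), -0.57 in D4 (SE 0.112, adjusted p 0.0116) and -0.22 in wt (SE 0.112, adjusted p 1). H3C10 stood at 7.31, 7.12, 7.09 and 7.49 in CPA-treated A3 tumours, 7.36, 7.32, 7.48 and 7.11 in D3, 7.26, 7.22, 7.06 and 7.07 in D4 and 7.75, 8.08, 8.16 and 8.02 in wt, against 7.46 to 7.78, 7.51 to 7.77, 7.53 to 7.97 and 8.09 to 8.52 in the control tumours of the same lines. They were apart in D3 and D4. With CPA H3C10 differed from control by -0.36 in A3 (SE 0.12, adjusted p 0.409), -0.30 in D3 (SE 0.111, adjusted p 0.298), -0.65 in D4 (SE 0.111, adjusted p 0.00234) and -0.29 in wt (SE 0.111, adjusted p 1), so D4 alone was called.

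Of the 11 H4 members, 1 fell in A3, 1 in D3 and 2 in D4. H4C2 stood at 9.19, 9.01, 8.83 and 9.02 in CPA-treated A3 tumours, 8.79, 8.87, 9.12 and 8.86 in D3, 8.96, 8.94, 8.76 and 8.85 in D4 and 8.79, 8.45, 8.28 and 8.37 in wt, against 9.51 to 9.87, 9.45 to 9.70, 9.38 to 9.83 and 8.43 to 8.91 in the control tumours of the same lines. Treated and control arrays were apart in the clones and overlapped in wt. With CPA H4C2 differed from control by -0.64 in A3 (SE 0.128, adjusted p 0.0128), -0.63 in D3 (SE 0.118, adjusted p 0.00749), -0.74 in D4 (SE 0.118, adjusted p 0.0013) and -0.28 in wt (SE 0.118, adjusted p 1). H4C8 stood at 8.87, 8.86, 8.92 and 9.23 in CPA-treated A3 tumours, 8.97, 8.89, 9.04 and 9.01 in D3, 9.06, 8.94, 8.99 and 8.94 in D4 and 9.42, 10.18, 10.27 and 10.04 in wt, against 8.90 to 9.31, 9.09 to 9.31, 9.27 to 9.45 and 10.15 to 10.72 in the control tumours of the same lines. They were apart in D3 and D4. With CPA H4C8 differed from control by -0.17 in A3 (SE 0.141, adjusted p 0.909), -0.22 in D3 (SE 0.13, adjusted p 0.475), -0.39 in D4 (SE 0.13, adjusted p 0.111) and -0.50 in wt (SE 0.13, adjusted p 0.276), and no call was made. H4C3 fell in D4 by 0.74 (adjusted p 0.00723) and differed by -0.50, -0.55 and -0.33 in A3, D3 and wt. H4C7, whose protein differs from the common H4, had its highest CPA values in A3 and wt, 0.23 and 0.23, neither past the threshold.

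These CPA counts depended on single arrays. The A3 count of 13 was 6 without control replicate 1, 3 without control replicate 4 and 5 without CPA replicate 3. The D3 count of 9 was 5 without control replicate 2 or CPA replicate 5, and the D4 count of 15 was 9 without control replicate 1, CPA replicate 1 or CPA replicate 5, 7 without control replicate 4, and 8 without CPA replicate 2. In wt the count was 1 without CPA replicate 1 and otherwise 0. H1-3 and H2BC14 were called in every alternative in each clone. Of all the calls, 2 of 13 in A3, 4 of 9 in D3 and 3 of 15 in D4 were made again in every alternative. The lists below leave out H2AC6 in A3 (called in 8 of 16 alternatives) and H2BC11 in D3 (12 of 17). In D4 they leave out H2AC11, H2BC11 and H3C3 (12, 8 and 6 of 17), and H2AC4, H3C10 and H4C3 (16 of 17 each). H2AC16 in A3 was called in every alternative but the one without the dimmest 30% of genes, which left it out. In A3, H1-2, H2AC15, H2AC20, H2AC25, H2AC4, H2BC3, H2BC7, H3C1 and H4C2 each lost the call when 1 or more of these arrays was left out singly, namely A3 CPA replicates 2, 3 and 4 and A3 control replicates 1, 2 and 4 (adjusted p 0.0508 to 0.389). In D3, H2AC20, H2AC4, H2BC3 and H4C2 each lost the call when 1 or more of these arrays was left out singly, namely D3 CPA replicates 2, 3, 4 and 5 and D3 control replicates 1, 2, 3 and 5 (adjusted p 0.0504 to 0.178). In D4, H2AC15, H2AC20, H2AC8, H2BC3, H2BC7 and H3C1 each lost the call when 1 or more of these arrays was left out singly, namely D4 CPA replicates 1, 2, 4 and 5 and D4 control replicates 1 and 4 (adjusted p 0.0506 to 0.113). None of the members named by the rule changed direction under any alternative.

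Whether CPA acted differently between lines was tested directly. Between the resistant clones and the sensitive lines, 0 of the 54 members differed in their CPA effect by limma, where 0.00578% of all genes did, and 1 had an unadjusted p under 0.05. Between A3 and wt, 0 members differed, as did 0% of all genes, and 15 had an unadjusted p under 0.05, all with the larger fall in A3. The CPA effect in A3 is therefore not shown to differ from that in wt, and the effects in D3 and D4 were not tested against wt singly.

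No gene of DNA replication was called lower with CPA. Of 46, 2 rose with CPA in A3, 0 in D3 by limma (9 with an unadjusted p under 0.05, of which 5 were higher), 4 in D4 and 1 in wt, and none fell. Their medians were 0.18, 0.04, 0.27 and 0.26. POLA2, a subunit of DNA polymerase alpha, rose by 0.47 in A3, 0.38 in D4 and 0.42 in wt (adjusted p 0.00573, 0.0158 and 0.0401) and differed by 0.32 in D3 (adjusted p 0.105). Of 26 mitosis genes, 9, 11, 6 and 5 fell in A3, D3, D4 and wt and none rose. KIF20A, a mitotic kinesin, fell by 1.44, 1.28, 1.11 and 0.998 in A3, D3, D4 and wt. Their part in the histone changes was not tested.

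Of 25 genes of histone mRNA processing and transcription, none was called with CPA in any line by limma, and 1, 2, 6 and 0 had an unadjusted p under 0.05 in A3, D3, D4 and wt. SLBP differed by 0.20 in A3 (adjusted p 0.561), and NPAT, the co-activator of histone transcription, by 0.61 in D4 (adjusted p 0.0691). Of 20 chaperones, CHAF1B rose in A3 by 0.37 (adjusted p 0.018) and HJURP, the chaperone of centromeric H3, fell in D4 by 0.28 (adjusted p 0.0477). Of 9 replication-independent histones, none was called in any line by limma, and 1, 1, 2 and 1 had an unadjusted p under 0.05 in A3, D3, D4 and wt, all lower. No endothelial, fibroblast, myeloid or erythroid marker was called with CPA in any line by limma. Because the probe sets are for human genes, this does not show that host cells were unchanged. Over these 34 markers, 2, 4, 5 and 4 had an unadjusted p under 0.05 in A3, D3, D4 and wt.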

How the data were processed

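The deposited table holds log2 expression values of the 31 arrays, which the authors computed by RMA according to the submitters' processing notes; the RMA software, its version and the array annotation build are not given in the sources used here. Labelled cDNA was made with whole-transcript kits, per the labels' protocols, so mRNA without a poly(A) tail could be read. Of 23989 probe sets, 17624 carried 1 gene symbol, 411 several and 5954 none. Symbols were updated through Entrez IDs, and the probe set with the highest mean stood for a gene, which gave 17314 genes. No filter on low values was applied. limma 3.58.1 (R 4.3.3) was fitted once over all 31 arrays and 8 groups, with Benjamini-Hochberg adjustment over 17314 genes and a call at an adjusted p under 0.05. The procedure was tested on simulated data. Array number limits the precision.

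Genes with values in every array were the 2 per class with the smallest p of the F test over the 8 groups. H2AC21 and H2BC11 were also given by array where the resistant clones were set against A3. The rule further named the 5 called members of largest difference in each direction per comparison, and up to 4 genes of each other list. These were given mainly as differences. The members and lists were chosen with earlier results of these data known. Alternatives were only the groups compared, array weights, median centring, further quantile normalization, a variance trend, the mean of a gene's probe sets, leaving out the dimmest 30% of genes, a replicate block, leaving out each array and, chosen after seeing the data, leaving out the 4 arrays farthest from their group mean. Same-numbered arrays of D3 and wt control tumours deviated together (correlations 0.262, 0.408 and 0.155). Those of wt tumours with and without CPA had correlations of 0.215, 0.388 and 0.0193. Each other comparison held a pair with a negative correlation. Promoters came from RefSeq (GRCh38.p14).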

Additional observations from a re-analysis of the deposited data

Results flagged for a closer look

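In 112 groups of 4 arrays tested for a single array far from the others, 3 stood out, where chance gives about 1 in 20 groups. H2BC14 was lowest in A3 CPA replicate 3, at 10.63, while the other 3 arrays of the group lay between 10.85 and 10.87. H2BC21 was lowest in wt control replicate 4, at 9.02, while the others lay between 9.60 and 9.71. H4C8 was highest in A3 CPA replicate 4, at 9.23, while the others lay between 8.86 and 8.92.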

How the results depend on the processing

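Over the alternatives, none of the 78 values of members named by the rule reversed; 1274 settings kept the call and 37 lost it. Counts of members called moved by over 1.5 times as follows. Fitting only the groups compared gave 1 in place of 2 for the resistant clones against A3 without CPA, 3 in place of 13 for CPA in A3 and 6 in place of 15 for CPA in D4, with fewer arrays in each fit. Array weights gave 7 in place of 2, 20 in place of 13 for CPA in A3 and 18 in place of 9 for CPA in D3. Further quantile normalization gave 1 in place of 2. Leaving out the 4 arrays farthest from their group mean, chosen after seeing the data, gave 1 in place of 2 and 3 in place of 15 for CPA in D4. For array weights and quantile normalization the cause was not tested. Leaving out 1 array at a time gave 31 to 37 members for A3 against wt, 29 to 36 for D3, 32 to 38 for D4, 21 to 30 for CPA-treated A3 against wt, 15 to 27 for D3 and 16 to 30 for D4. It gave 0 to 2 for the resistant clones against A3 in control tumours and 1 with CPA, 3 to 14 for CPA in A3, 5 to 8 in D3, 7 to 19 in D4 and 0 to 1 in wt, and 0 for both tests between lines. With the replicate block the counts were 36, 36 and 39 for A3, D3 and D4 against wt, 26, 21 and 21 with CPA, 2 and 1 for D3 and D4 together against A3, 14, 12, 16 and 0 for CPA in A3, D3, D4 and wt, and 0 between lines, none moved by over 1.5 times.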

Other observations

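Of the probe sets with several histone symbols, 4 were left out of the members and fitted apart, over all 23989 probe sets. The probe set of H3C4 and H2AC7 differed from wt by 0.86 in A3, 0.62 in D3 and 0.73 in D4 control tumours (limma adjusted p 1.71e-05, 0.000395 and 5.22e-05), and with CPA by -0.69 in A3, -0.45 in D3 and -0.57 in D4 (adjusted p 0.00897, 0.157 and 0.0235). The probe set of H3C11 and H3C6 differed from wt by -0.50, -0.54 and -0.49 (adjusted p 0.00698, 0.00179 and 0.00414), while the probe set of H3C11 alone differed by 0.40, 0.06 and 0.09. The probe set of H2BC15 and H2AC15 differed by 0.45, 0.28 and 0.41 (adjusted p 0.00599, 0.0728 and 0.00633). The probe set of H3C10 and H2AC13 differed by 0.11, 0.04 and 0.13 without passing the threshold, and by -0.53 with CPA in D4 (adjusted p 0.00867).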
